A study of Mus musculus with 14 samples.

Results

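The genes described here serve fatty acid oxidation in the peroxisome or act on its substrates: the membrane transporters Abcd3 and Abcd2, the chain-shortening enzymes Ehhadh, Hsd17b4, Acaa1b and Scp2, the protease Lonp2, the thioesterase Acot1 and the oxidase Hao2. They were taken as every probe set whose only gene symbol in the array annotation is one of these names, which gave 11 probe sets for 9 genes, of 12488 probe sets and 8252 genes on the array. Acaa1b and Scp2 have 2 probe sets each, called A and B here and in the plots, and the other 7 genes have 1. All 11 probe sets passed the filter on low values and were tested with 7227 probe sets in all, so no member was left out.

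Liver RNA was measured on 14 Affymetrix mouse arrays, each labelled with its own animal number. The groups were dwarf mice of 22 months (animals 3, 4 and 8), wild type mice of 22 months (1, 2 and 24), dwarf mice of 6 months (83, 85, 87 and 89) and wild type mice of 6 months (82, 84, 86 and 88). Dwarf mice are Snell mice with a mutant Pit-1, which the labels describe as long lived, and the wild type mice are the controls of that mutant. Pit-1 (Pou1f1) is needed for the pituitary cell types behind growth hormone, prolactin and thyrotropin, so effects of losing these hormones cannot be told apart in this model. The labels used give no sex, strain background, diet, litter or batch.

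Peroxisomes shorten very long-chain, branched and dicarboxylic fatty acids and the side chain of bile acid precursors, and pass the shortened products to mitochondria. Fatty acids enter as coenzyme A esters through ABC transporters. Within the cycle a bifunctional enzyme adds water across a double bond and oxidises the product, and a thiolase then releases acetyl-CoA or propionyl-CoA. In rodent liver many of these genes are known targets of the nuclear receptor PPAR-alpha, which binds as a heterodimer with RXR to direct repeats of the AGGTCA motif.

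Values are MAS5 signals with a trimmed mean between 500.357 and 500.437 on every array. Signals under 54.9, the pooled 25th percentile, were set to it before the test. The filter asked for a signal above 184.8, the pooled median, on 3 or more arrays. Abcd2 and Hao2 were above it in every dwarf liver. In wild type livers Abcd2 was above it only in animal 1 (321.2) and Hao2 only in animal 82 (273). Abcd2 and Hao2 therefore entered the tests only through the group in which they were high. Igf1, a growth hormone target in liver, read 273.1 to 616.8 in dwarf and 5031.4 to 7262.5 in wild type livers at 22 months, and 332.7 to 799.9 in dwarf and 7451.8 to 10810.7 in wild type livers at 6 months, so its signal followed the genotype labels. All 10 defining hepatocyte markers were above the filter, Xist was below the floor on all 14 arrays, and of 6 kidney markers, from the other organ rich in peroxisomes, 1 passed the filter. The wild type array of animal 88 stands apart from its group: its 3' to 5' signal ratio was 0.811 for Gapdh and 1.16 for beta-actin, and its 18S control signal was 587.6, against at least 1.31, 1.56 and at most 181.8 on the other 3 arrays. In whole liver RNA, fewer cells of a type and less RNA per cell cannot be told apart.

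Promoter windows of RefSeq (GRCm38.p6), from 250 bases before to 50 bases after the transcript start, were read for 7 of the 9 genes. No window was read for Abcd2 or Hsd17b4. The windows below belong to Ehhadh, Acot1 and Hao2, the 3 genes that were higher in dwarf livers at 22 months, and to Scp2. The Scp2 window holds the only match to the single motif AGGTCA among the 7 genes read. They are written in the direction of transcription, with that motif in capitals.
Ehhadh, chr16:21787785-21788084, minus strand: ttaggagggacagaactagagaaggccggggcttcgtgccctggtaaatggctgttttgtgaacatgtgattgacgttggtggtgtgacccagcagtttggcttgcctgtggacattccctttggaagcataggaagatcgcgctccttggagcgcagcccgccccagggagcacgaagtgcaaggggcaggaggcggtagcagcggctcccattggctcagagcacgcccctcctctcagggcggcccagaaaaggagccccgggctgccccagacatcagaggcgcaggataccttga
Acot1, chr12:84009252-84009551, plus strand: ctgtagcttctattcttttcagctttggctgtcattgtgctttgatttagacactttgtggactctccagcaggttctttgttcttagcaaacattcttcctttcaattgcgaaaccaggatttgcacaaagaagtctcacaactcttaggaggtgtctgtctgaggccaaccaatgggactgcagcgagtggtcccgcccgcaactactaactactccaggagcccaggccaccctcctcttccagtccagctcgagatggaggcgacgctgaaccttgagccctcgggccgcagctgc
Hao2, chr3:98893181-98893480, minus strand: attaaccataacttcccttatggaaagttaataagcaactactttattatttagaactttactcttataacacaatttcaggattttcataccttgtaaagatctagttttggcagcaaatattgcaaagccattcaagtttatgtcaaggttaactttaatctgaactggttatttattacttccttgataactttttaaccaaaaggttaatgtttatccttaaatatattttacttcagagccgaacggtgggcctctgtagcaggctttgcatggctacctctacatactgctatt
Scp2, chr4:108118498-108118797, minus strand: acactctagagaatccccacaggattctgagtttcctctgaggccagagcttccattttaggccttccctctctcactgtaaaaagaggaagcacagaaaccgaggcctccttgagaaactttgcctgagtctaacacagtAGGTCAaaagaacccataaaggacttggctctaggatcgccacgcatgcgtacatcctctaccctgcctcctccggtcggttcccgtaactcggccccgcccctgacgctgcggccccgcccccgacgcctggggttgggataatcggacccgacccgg

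The single motif AGGTCA was searched on both strands. In Scp2 it lies at -109 to -104 from the start, on the strand of the gene, and 16.3% of all 32851 windows hold it. The direct repeat AGGTCANAGGTCA, which contains that motif 2 times with 1 base between, was in none of the members' windows that were read and in 0.0396% of all windows. With up to 2 mismatches it was in none of the members' windows that were read and in 3.86% of all. These letters are therefore not in these windows, which says nothing about sites elsewhere or about binding.

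Abcd3 (PMP70) is a major protein of the peroxisomal membrane and imports long-chain, branched and dicarboxylic acyl-CoAs. Its signal was 8215.3, 7361.3 and 7780.8 in dwarf livers of 22 months, against 9581.3, 9904.1 and 7900.6 in wild type livers of that age. It was 5440.5, 5731.3, 7506.8 and 6752.8 in dwarf livers of 6 months, against 15007.1, 17102.3, 19732.3 and 15651.5 in wild type livers of 6 months. All 4 young wild type livers stood above every other liver, while the remaining groups ran into each other at their edges.

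Abcd2 is a close relative that carries very long-chain acyl-CoAs and is usually low in liver. It read 318.3, 204.9 and 252.8 in 22-month dwarf livers, against 321.2, 142.5 and 85.2 in 22-month wild type livers, where the values overlapped. At 6 months it read 774.4, 198.2, 235.8 and 243.2 in dwarf livers, against 31.6, 104.4, 66.8 and 39.3 in wild type livers. Every young dwarf liver was above every young wild type liver, 2 of the 4 wild type values were under the floor, and dwarf animal 83 was far above the other dwarf values. Without animal 83 the log2 difference at 6 months was 1.73 (limma adjusted p = 0.0122), compared with 2.18 with all arrays.

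Ehhadh is the L-bifunctional enzyme, which hydrates and dehydrogenates straight-chain substrates. Its signal was 1102.2, 1282.6 and 1264.5 in dwarf and 494.7, 503.3 and 292.6 in wild type livers of 22 months, and 537.7, 487.7, 391.6 and 675.9 in dwarf and 617.8, 615.3, 834.2 and 709.8 in wild type livers of 6 months. Old dwarf livers stood above all others, with a mean of 1216 ± 99.3 (SD, n = 3). The other means followed in the order young wild type, young dwarf and old wild type, and each neighbour in that order overlapped the next.

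Hsd17b4 is the D-bifunctional enzyme, which acts on branched-chain and bile acid substrates. It read 5310.1, 5054.7 and 4465.7 in dwarf and 3349.5, 4318.4 and 3413.4 in wild type livers of 22 months, and 2584.6, 1562, 2095.6 and 2167.2 in dwarf and 5028.9, 4628.5, 4069.9 and 4824.5 in wild type livers of 6 months. Here the young dwarf livers stood apart below all others. Old dwarf and young wild type livers overlapped at the top.

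Acaa1b is a 3-ketoacyl-CoA thiolase, the last enzyme of the straight-chain cycle. It has a near-identical copy, Acaa1a, and how far its probe sets tell the copies apart was not tested. Probe set A read 15473.6, 16577.7 and 13085.6 in dwarf and 8989.6, 12093.7 and 5495.9 in wild type livers of 22 months, and 9755.5, 5190.5, 6158.8 and 7979.7 in dwarf and 12889.4, 10690, 13597.8 and 20517.2 in wild type livers of 6 months. Dwarf livers lay above wild type livers at 22 months and below them at 6 months, without overlap at either age.
Probe set B of Acaa1b read 3790.9, 4160 and 5554.5 in dwarf and 2229.6, 3982.7 and 1025.5 in wild type livers of 22 months, and 1288.3, 891.2, 1096.7 and 990.8 in dwarf and 2178.4, 1315.2, 1924.1 and 6964.8 in wild type livers of 6 months. The groups overlapped at 22 months and were just separate at 6 months, where wild type animal 88 was far above its group.

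Scp2 encodes both a thiolase for branched-chain substrates and bile acid side chains (SCPx) and the sterol carrier protein 2. Probe set A, of a kind that may also detect related transcripts, read 11368.7, 8853.2 and 12331.2 in dwarf and 9769.2, 11816.9 and 10341.2 in wild type livers of 22 months, and 6127.2, 5252.2, 5006.2 and 4585.8 in dwarf and 11204.8, 8972.3, 9413 and 15965.7 in wild type livers of 6 months. Probe set B read 10487.5, 13635.9 and 15775.5 in dwarf and 17166.9, 11365.8 and 13643.9 in wild type livers of 22 months, and 7145.1, 4859.8, 7341.2 and 5013.7 in dwarf and 12135.1, 7628.3, 18018.2 and 11345.5 in wild type livers of 6 months. On both probe sets the 4 young dwarf livers were below every other liver, and the other 3 groups overlapped.

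Lonp2 is the Lon protease of the peroxisomal matrix, which processes and degrades matrix enzymes. Its signal was 3140.9, 2529.5 and 2906.5 in dwarf and 2944.9, 3367.5 and 2303.4 in wild type livers of 22 months, and 1693.1, 1329.9, 1049.4 and 1346.7 in dwarf and 4909.4, 3728.2, 4282 and 4498.4 in wild type livers of 6 months. The levels formed 3 steps: young wild type livers at the top, both old groups overlapping in the middle, and young dwarf livers at the bottom.

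Acot1 hydrolyses acyl-CoAs to free fatty acids; in mice it is known as a cytosolic enzyme and a PPAR-alpha target, and it has close copies among the other Acot genes. It read 753.8, 556.8 and 641.1 in dwarf and 162.6, 254.9 and 186.4 in wild type livers of 22 months, and 274, 291.9, 311.9 and 340.2 in dwarf and 400.2, 344.3, 429.3 and 593.8 in wild type livers of 6 months. Old wild type livers were below all others, young dwarf livers came next, and old dwarf and young wild type livers overlapped at the top.

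Hao2 is a peroxisomal oxidase of long-chain 2-hydroxy acids that makes hydrogen peroxide. It read 1458.8, 1532 and 1377.9 in dwarf and 14.7, 123.5 and 40.8 in wild type livers of 22 months, and 960.9, 1179.3, 642.9 and 858.3 in dwarf and 273, 56.2, 110.7 and 142.6 in wild type livers of 6 months. Dwarf livers were above wild type livers at both ages without overlap, and 2 of the 3 old wild type values lay under the floor. Of the 11 probe sets, only that of Hao2 had all dwarf livers above all wild type livers at both ages.

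**Figure D1:**
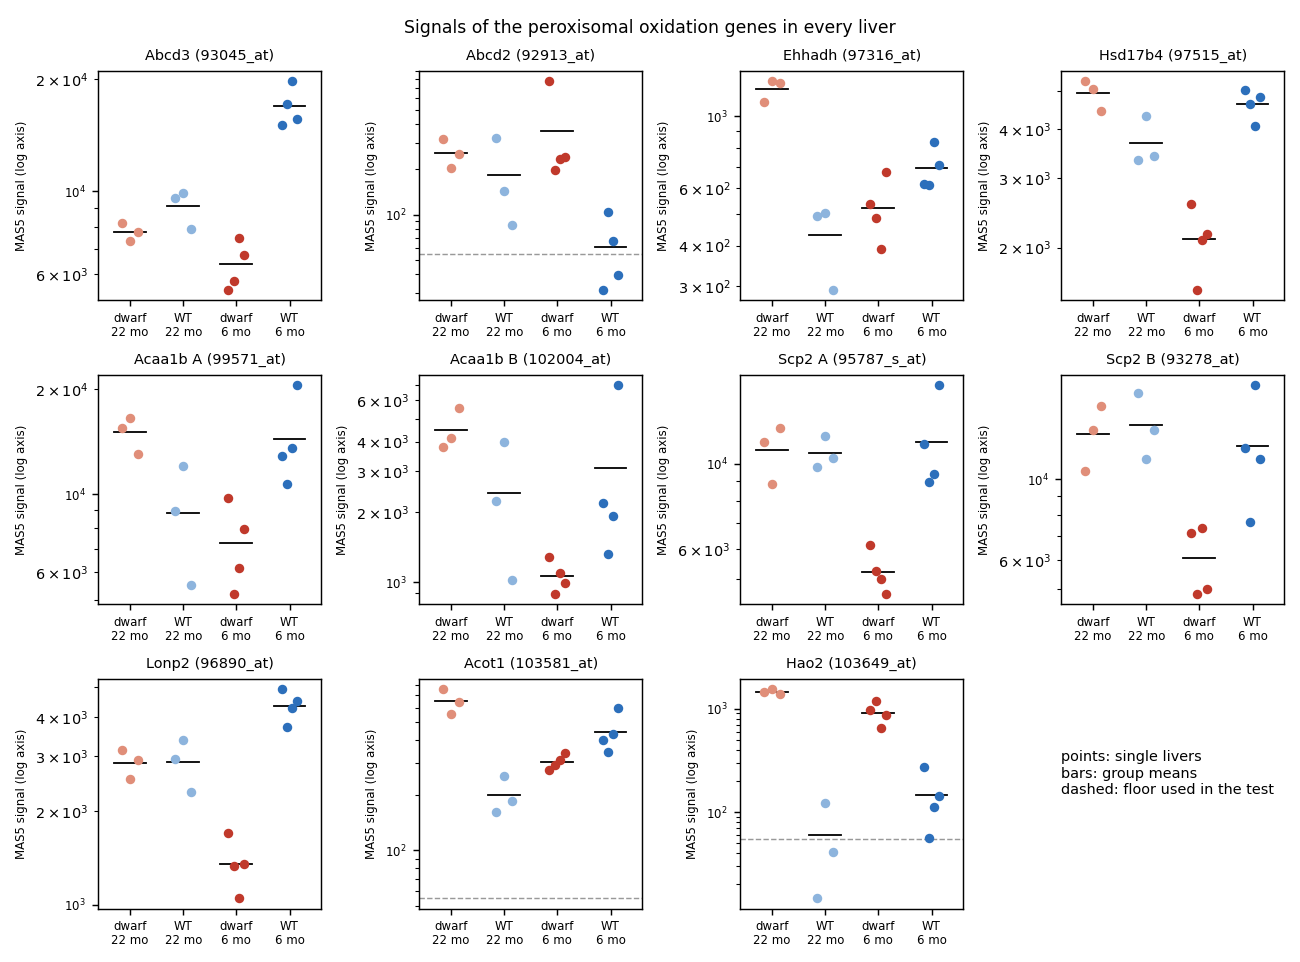
MAS5 signal (log axis, 1 panel per probe set) in single livers of the 4 groups, with bars at the group means and a dashed line at the floor of 54.9 where it comes near the data. Young dwarf livers are lowest for Hsd17b4, Scp2 and Lonp2, and Hao2 is high in both dwarf groups.

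At 22 months, dwarf livers expressed more of 3 members than wild type livers: Hao2, Acot1 and Ehhadh. Hao2 was 20.2-fold higher on the floored scale, with a log2 difference of 4.34 ± 0.44 (SE, limma adjusted p = 1.43e-05). Acot1 was 3.27-fold higher (1.71 ± 0.23, adjusted p = 0.000268), and Ehhadh was 2.91-fold higher (1.54 ± 0.23, adjusted p = 0.000818). Each of these 3 was higher in 3 of 3 dwarf livers than in any wild type liver. These 3 are of 11 probe sets, at an adjusted p under 0.05, where 2.93% of all tested probe sets passed in either direction and 1.37% were higher.

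The other 8 probe sets did not pass at 22 months. The 2 of Acaa1b had log2 differences of 0.83 ± 0.29 for A (adjusted p = 0.165) and 1.09 ± 0.49 for B (adjusted p = 0.37), and A passed with array weights (adjusted p = 0.0346) and with the 18S control signal as a covariate (adjusted p = 0.0485). Without wild type animal 24 the differences were 0.52 for A (adjusted p = 0.533) and 0.58 for B (adjusted p = 0.799). Hsd17b4 differed by 0.43 ± 0.17 (adjusted p = 0.277), and its groups did not overlap. Lonp2 and both probe sets of Scp2 had differences close to 0: the 95% intervals were -0.38 to 0.40 for Lonp2, -0.65 to 0.49 for Scp2 B and -0.40 to 0.44 for Scp2 A. Abcd3 differed by -0.22 ± 0.15 (adjusted p = 0.641) and Abcd2 by 0.69 ± 0.52 (adjusted p = 0.705), which was 0.25 without wild type animal 24 and 1.21 without animal 1. Groups did not overlap for 5 of the 11 probe sets, against 21.8% of all, and the median log2 difference of the 11 was 0.69, against 0.01 over all tested probe sets. That median was Abcd2's own value, and was 0.37 without animal 24. Leaving out any 1 of the 6 arrays left 3 calls, while the count over all probe sets fell to 127 without dwarf animal 3, against 212 with all arrays. Of 6 tested macrophage markers, Clec4f was lower, and the summed signal of the 8 on the array was 2872.2 to 4012.5 in dwarf livers, against 4560.4 to 7626.5 in wild type livers. The endothelial sum was 3655.4 to 4027.8 in dwarf and 4267.6 to 4403.2 in wild type livers, and the pancreatic elastase Cela1 was lower (-1.67, adjusted p = 0.00139); the part of these markers in the members' differences was not tested.

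At 6 months the picture differed: most members were lower in dwarf livers, and Hao2 and Abcd2 were higher. Lonp2 was 3.24-fold lower (-1.70 ± 0.16, limma adjusted p = 3.09e-06) and Abcd3 was 2.66-fold lower (-1.41 ± 0.13, adjusted p = 3.04e-06). Hsd17b4 fell by 1.16 on the log2 scale (SE 0.15, adjusted p = 8.52e-05). The probe sets of Scp2, both lower, differed by -1.09 ± 0.17 for A (adjusted p = 0.000508) and -0.97 ± 0.23 for B (adjusted p = 0.011), and Acaa1b A by -0.99 ± 0.25 (adjusted p = 0.0147). In each of these 6 probe sets, all 4 dwarf livers were below all 4 wild type livers. Hao2 was 7.13-fold higher (2.83 ± 0.38, adjusted p = 0.000126) and Abcd2 4.52-fold higher on the floored scale (2.18 ± 0.45, adjusted p = 0.00466), each in 4 of 4 dwarf livers.

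In all, 6 probe sets of 5 genes fell and 2 rose at 6 months, against 6.95% lower, 6.37% higher and 13.3% of all tested probe sets in either direction. Groups did not overlap for 10 of the 11, against 17.1% of all, and the median log2 difference was -0.99, against 0.10 over all. Ehhadh, Acot1 and Acaa1b B did not pass. Ehhadh differed by -0.42 ± 0.20 (adjusted p = 0.174, 95% interval -0.85 to 0.00). Acot1 differed by -0.51 ± 0.20 (adjusted p = 0.0997), and it passed with quantile normalization (adjusted p = 0.0425) and with arrays scaled to a common median (adjusted p = 0.0328). Acaa1b B differed by -1.24 ± 0.43 (adjusted p = 0.0674); it passed with arrays scaled to a common median (adjusted p = 0.0399), and was -0.74 without animal 88 (adjusted p = 0.167) and -1.54 without wild type animal 84 (adjusted p = 0.0314).

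Without animal 88 the 6-month comparison again called 8 member probe sets, and Hsd17b4, Abcd3 and Lonp2 differed by -1.14, -1.45 and -1.68. Acaa1b A missed the threshold with the 3' to 5' ratio as a covariate (adjusted p = 0.052) and without the filter on low values (adjusted p = 0.062). Endothelial markers moved with this comparison: 3 of 6 tested markers (Stab1, Ramp2 and Kdr) rose, and the summed signal of the 8 on the array was 4608.2 to 5609 in dwarf livers, against 3434.5 to 4461.4 in wild type livers. The summed signal of the 10 hepatocyte markers was 204846.9 to 273119.7 in dwarf and 169407.4 to 202508.2 in wild type livers, with 4 markers higher and 1 lower, and 2 of 4 lymphocyte markers (Cd79b and Ighm) and 1 of 5 stellate cell markers (Reln) were higher. The erythroid marker Alas2 (-2.48) and Cela1 (-2.03) were lower, the neutrophil sum was 905.3 to 1191.1 in dwarf and 574.3 to 710.3 in wild type livers, and the 25th percentile of all signals was 56.5 to 74.1 and 48.9 to 56. Their part in the members' differences was not tested.

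**Figure D2:**
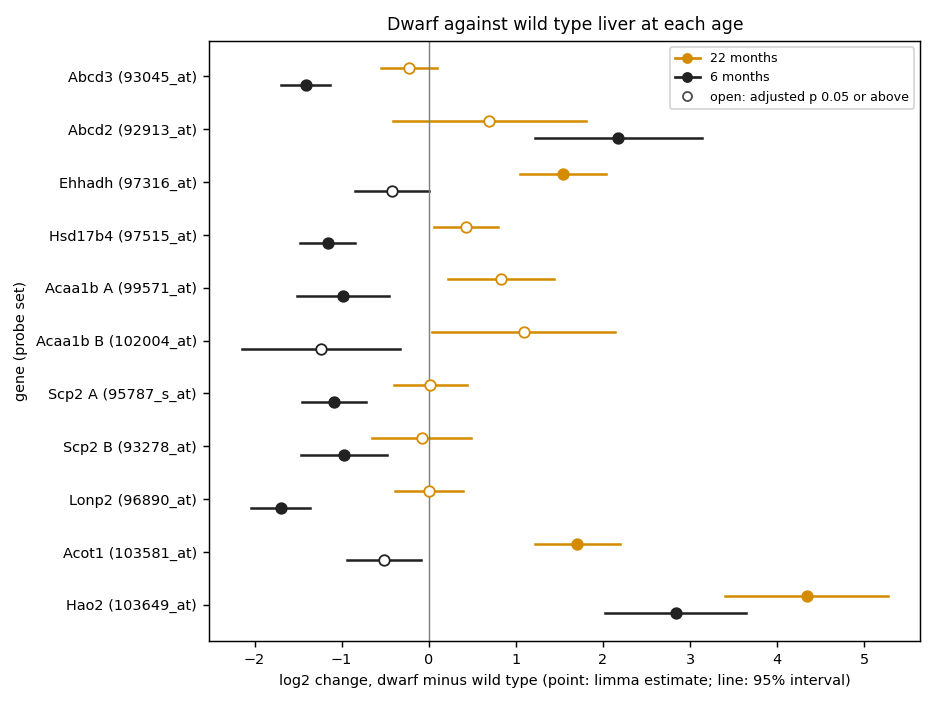
Log2 change of each member probe set in dwarf over wild type livers (point) with its 95% interval (line) at 22 and at 6 months; filled points have a limma adjusted p under 0.05. At 22 months Hao2, Acot1 and Ehhadh lie to the right of 0, and at 6 months 6 probe sets lie to the left and Hao2 and Abcd2 to the right.

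The change in the genotype difference between the ages was tested directly, as the difference at 22 months minus that at 6 months. It was positive for 7 probe sets of 7 genes, against 2.19% of all tested probe sets in either direction and 1.54% positive. The median over the 11 was 1.59, against -0.07 over all. For Acot1 the difference was 1.71 at 22 months and -0.51 at 6 months, an interaction of 2.22 ± 0.30 (SE, limma adjusted p = 0.00304), and for Ehhadh it was 1.54 and -0.42, an interaction of 1.96 ± 0.31 (adjusted p = 0.00413). Lonp2 had an interaction of 1.70 ± 0.24 (adjusted p = 0.00304), Hsd17b4 of 1.59 ± 0.23 (adjusted p = 0.00304) and Abcd3 of 1.19 ± 0.20 (adjusted p = 0.00761). Lonp2 and Abcd3 were lower in young dwarf livers, with differences of 0.01 and -0.22 that did not pass in old ones, while Ehhadh and Acot1 were higher in old dwarf livers and had differences that did not pass in young ones.

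The call was less firm for 2 of the 7. Acaa1b A had an interaction of 1.82 ± 0.38 (adjusted p = 0.0225), and this missed the threshold without wild type animal 24 (1.51, adjusted p = 0.0639), dwarf animal 3 (1.79, adjusted p = 0.0626) or dwarf animal 4 (1.74, adjusted p = 0.0584). Scp2 A had 1.11 ± 0.26 (adjusted p = 0.0381), and its adjusted p lay between 0.0546 and 0.108 without animal 1, 24, 3, 8, 82, 85, 87 or 89. Both also missed it without the filter (adjusted p = 0.105 for Acaa1b A and 0.123 for Scp2 A), without the variance trend (0.0549 and 0.0905) and with the 3' to 5' ratio as a covariate (0.0868 and 0.135), and Scp2 A with quantile normalization (0.0511). The other Scp2 probe set had 0.89 ± 0.35 (adjusted p = 0.255), and Acaa1b B had 2.32 ± 0.65 (adjusted p = 0.0893), which passed with the 18S signal as a covariate (2.41, adjusted p = 0.0263) and without wild type animal 2 (2.79, adjusted p = 0.0364) or 84 (2.63, adjusted p = 0.0499). Hao2 (95% interval 0.27 to 2.74, adjusted p = 0.238) and Abcd2 (-1.48 ± 0.69, adjusted p = 0.339), the members that were higher in young dwarf livers, did not pass. Without animal 88, 7 probe sets passed, with Acot1 at 2.07 and Ehhadh at 1.95. The count over all probe sets was 158, and fell to 85 without wild type animal 1, 57 without 24 and 101 without 82, and to 48 without dwarf animal 3, 88 without 4, 69 without 8 and 103 without 87. Among cell markers, Alas2 had a positive interaction (1.89) and Ighm (-1.36) and Reln (-1.10) a negative one, and the median of 6 macrophage markers was -0.85; their part in the members' interaction was not tested.

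Most members were higher in old than in young dwarf livers. At 22 months 8 probe sets of 6 genes were higher than at 6 months, against 7.94% of all tested probe sets higher, 8.57% lower and 16.5% called in either direction. Acaa1b B was 4.2-fold higher (2.07 ± 0.46, limma adjusted p = 0.00898), and the other 7 were 2.06- to 2.38-fold higher: Hsd17b4 (1.25 ± 0.16, adjusted p = 0.000528), Ehhadh (1.24 ± 0.22, adjusted p = 0.00244), Lonp2 (1.09 ± 0.17, adjusted p = 0.00144), Acot1 (1.09 ± 0.21, adjusted p = 0.00481), Acaa1b A (1.08 ± 0.27, adjusted p = 0.014) and the Scp2 probe sets (1.13 ± 0.25 for B and 1.04 ± 0.19 for A). Groups did not overlap for 9 of the 11, against 29.1% of all, and the median log2 difference was 1.09, against -0.09 over all. The transporters and Hao2 did not pass: Abcd3 differed by 0.30 ± 0.14 (adjusted p = 0.152), Abcd2 by -0.27 ± 0.49 (adjusted p = 0.738) and Hao2 by 0.71 ± 0.41 (adjusted p = 0.244). Abcd3 passed with arrays scaled to a common median (0.50, adjusted p = 0.0344) and Hao2 in a fit of the dwarf arrays alone (adjusted p = 0.0426).

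Measures of the arrays moved with age in dwarf livers. The 3' to 5' ratio of beta-actin was 1.25 to 1.57 on the 22-month and 2.29 to 2.69 on the 6-month dwarf arrays, that of Gapdh 0.821 to 0.968 and 1.31 to 1.77, and the 18S control 418.4 to 1048.6 and 60.8 to 217.4. None of the 3 overlapped, each with an exact two-sided permutation p of 0.0286, the smallest that 3 against 4 arrays can give, and 0.114 after adjustment over 16 tests. With the 18S signal as a covariate 3 member probe sets passed (Hsd17b4, adjusted p = 0.0185, and Lonp2 and Scp2 B, adjusted p = 0.0412 each), and with the 3' to 5' ratio 1 passed (Hsd17b4, 1.25, adjusted p = 0.0449). In those fits all 8 remained positive, at 0.63 to 1.36 with the 18S signal and 0.52 to 1.43 with the ratio, and the count over all probe sets was 110 and 51, against 1193 without a covariate. Acaa1b A missed the threshold without dwarf animal 3 (1.06, adjusted p = 0.0541) or 4 (1.01, adjusted p = 0.0568) and without the filter on low values (adjusted p = 0.0544). The count over all probe sets was 521 without dwarf animal 3, 662 without 4 and 732 without 8, and 756 without the 6-month dwarf animal 87. The summed signal of the endothelial markers was 3655.4 to 4027.8 in the 22-month and 4608.2 to 5609 in the 6-month dwarf livers, with Stab1 lower, and 3 of 10 hepatocyte markers (Alb, Apoa1 and Tat) were lower. The neutrophil marker Camp (-1.33) and the stellate cell marker Col1a2 (-0.70) were lower and Alas2 (1.37) was higher. Of 2 tested sex-linked genes, Eif2s3y (1.17) was higher and Uty did not pass. The part of all these genes in the members' differences was not tested.

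In wild type livers, Acot1 and Abcd3 were lower at 22 than at 6 months. Acot1 fell by 1.13 on the log2 scale (SE 0.21, limma adjusted p = 0.0141) and Abcd3 by 0.89 (SE 0.14, adjusted p = 0.00548), 2 of 11 probe sets, against 1.04% of all tested probe sets lower, 1.45% higher and 2.49% called in either direction. In both, every 22-month liver was below every 6-month liver. Ehhadh (-0.72 ± 0.22, adjusted p = 0.0896) and Lonp2 (-0.61 ± 0.17, adjusted p = 0.0722) did not overlap between the ages either but did not pass, except with array weights (adjusted p = 0.0412 for Ehhadh and 0.0405 for Lonp2). Acaa1b A differed by -0.73 ± 0.27 (adjusted p = 0.165), Hao2 by -0.79 ± 0.41 (adjusted p = 0.336), Hsd17b4 by -0.33 ± 0.16 (adjusted p = 0.295) and Abcd2 by 1.22 ± 0.49 (adjusted p = 0.204). Groups did not overlap for 4 of the 11, against 15.9% of all, and the median log2 difference was -0.61, against -0.02 over all. For Scp2 the differences were 0.24 ± 0.25 on B and -0.06 ± 0.19 on A, and for Acaa1b B -0.25 ± 0.46, which was 0.26 without wild type animal 24 and 0.24 without 88.

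The wild type age difference rested on few arrays. Acot1 missed the threshold without wild type animal 1 (-0.99, adjusted p = 0.0718) or 24 (-1.09, adjusted p = 0.0516), or in a fit of the wild type arrays alone (adjusted p = 0.0651), and was -0.98 (adjusted p = 0.0137) without animal 88. Abcd3 missed it with the 18S signal as a covariate (adjusted p = 0.0785); the 18S control read 339.8 to 4852.8 on the 22-month and 74.5 to 587.6 on the 6-month wild type arrays. The count over all probe sets was 180, 457 without animal 88, and 60 to 69 without animal 1, 2, 24, 84 or 86. Of the cell markers, Ighm (1.01), Reln (0.72) and the hepatocyte marker Ahsg (0.62) were higher at 22 months. Of 2 tested sex-linked genes, Eif2s3y (1.26) was higher and Uty did not pass. The part of all these genes in the members' differences was not tested.

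**Figure D3:**
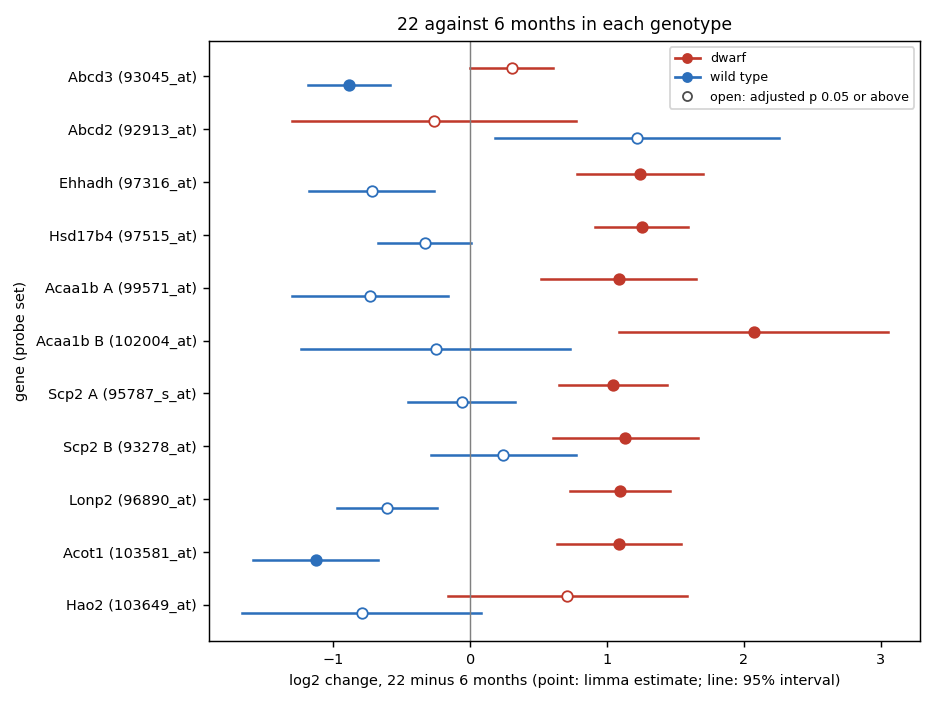
Log2 change of each member probe set at 22 over 6 months (point) with its 95% interval (line) in dwarf and in wild type livers; filled points have a limma adjusted p under 0.05. In dwarf livers 8 probe sets lie to the right of 0, and in wild type livers Abcd3 and Acot1 lie to the left.

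Averaged over the ages, 4 members were higher in dwarf livers and 3 were lower, against 4.65% and 5.62% of all tested probe sets and 10.3% in either direction. Hao2 (3.59 ± 0.29, limma adjusted p = 4.68e-07), Abcd2 (1.44 ± 0.35, adjusted p = 0.0129), Acot1 (0.60 ± 0.15, adjusted p = 0.0177) and Ehhadh (0.56 ± 0.15, adjusted p = 0.0285) were higher. Lonp2 (-0.85 ± 0.12, adjusted p = 0.00019), Abcd3 (-0.82 ± 0.10, adjusted p = 4.5e-05) and Scp2 A (-0.53 ± 0.13, adjusted p = 0.0144) were lower. Of these, only Hao2 passed at both ages. The differences at 22 and at 6 months were 1.71 and -0.51 for Acot1, 1.54 and -0.42 for Ehhadh and 0.69 and 2.18 for Abcd2. They were 0.01 and -1.70 for Lonp2, -0.22 and -1.41 for Abcd3 and 0.02 and -1.09 for Scp2 A. The average of Acaa1b A was -0.08 and did not pass (adjusted p = 0.846), with 0.83 at 22 months and -0.99 at 6 months. Ehhadh missed the threshold without animal 24, 4, 8, 82, 84 or 89 (0.43 to 0.54, adjusted p = 0.0532 to 0.0754), Acot1 without animal 1 (0.53, adjusted p = 0.0518) or 3 (0.54, adjusted p = 0.0612), and Scp2 A without animal 4 (-0.47, adjusted p = 0.053). Ehhadh also missed it with quantile normalization (adjusted p = 0.057), median scaling (0.109) and no filter (0.0662), Acot1 with median scaling (0.0597), and Abcd2 (0.054) and Scp2 A (0.0502) without the filter. Hsd17b4 (-0.37 ± 0.11, adjusted p = 0.0521) passed without animal 86 (-0.40, adjusted p = 0.0477) or 83 (-0.42, adjusted p = 0.0202), with median scaling (0.0385), the higher filter (0.0394) and array weights (0.0372), and Scp2 B (-0.53 ± 0.18, adjusted p = 0.0728) without animal 84 (-0.63, adjusted p = 0.0201), with median scaling (0.0361) and with array weights (0.0418).

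Of the rest of peroxisomal beta-oxidation, Crat and Nudt19 were higher in dwarf livers averaged over the ages (1.15, limma adjusted p = 0.0341, and 0.69, adjusted p = 0.00108). Neither interaction passed: it was 1.76 ± 0.66 (SE, adjusted p = 0.216) for Crat and -0.04 ± 0.24 (adjusted p = 0.961) for Nudt19. Crat passed at 22 and not at 6 months, but with its interaction not passing, a difference between the ages was not shown. Whether its average stands for both ages is therefore not settled. Of 23 other genes of the pathway, 8 were on the array with 1 symbol and tested; Crot, which makes carnitine esters of the shortened chains, was not among them. At 22 months 1 of the 8 passed, Crat, the carnitine acetyltransferase, which was higher in dwarf livers (2.03 ± 0.50, limma adjusted p = 0.0335), and the median log2 difference was 0.28. At 6 months 1 passed, Nudt19, a coenzyme A hydrolase, which was also higher (0.71 ± 0.16, adjusted p = 0.00681, beside 0.67 at 22 months), and the median was 0.16. These shares, 1 of 8, stand beside 2.93% of all probe sets called at 22 months and 13.3% at 6 months. With age in dwarf livers 1 of the 8 passed, against 16.5% of all tested probe sets in either direction. This was Eci2, an enoyl-CoA isomerase, which was lower (-0.67, adjusted p = 0.0366). Eci2 differed by nearly as much with age in wild type livers (-0.66, adjusted p = 0.0974), and its interaction was -0.0075 (adjusted p = 0.995). Acaa1a, the near-identical copy of Acaa1b, differed by 0.04 at 22 months (adjusted p = 0.989) and -0.13 at 6 months (adjusted p = 0.753).

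Among 13 tested of 20 other peroxisomal enzymes, Aldh3a2, a fatty aldehyde dehydrogenase, was higher in dwarf livers at 22 months (1.55, limma adjusted p = 0.000897), and Idh1, which makes NADPH in peroxisomes and cytosol, was lower at 6 months (-1.04, adjusted p = 0.000103). Each was the only 1 of the 13 called at its age, against 2.93% of all tested probe sets at 22 months and 13.3% at 6 months. The change between ages was positive for 3 of the 13, against 1.54% of all tested probe sets: Aldh3a2 (1.31), Ephx2, the soluble epoxide hydrolase (1.16), and Idh1 (0.91). Catalase (Cat), which removes the hydrogen peroxide of the oxidases, differed by 0.13 at 22 months (adjusted p = 0.884) and -0.25 at 6 months (adjusted p = 0.286). Of 9 tested of 18 peroxisome assembly and membrane genes, Pex19, which brings membrane proteins to the peroxisome, was lower in dwarf livers at 6 months (-0.62, adjusted p = 0.0424). It was the only 1 of the 9 called at 6 months, against 13.3% of all tested probe sets. With age in dwarf livers 3 of the 9 were higher, against 7.94% of all probe sets: Pex19 (0.73), the receptor Pex5 (0.70) and the receptor Pex7 (0.67). Idh1 (1.20) and Ephx2 (0.59) were also higher.

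The PPAR-alpha targets outside the peroxisome that passed went in both directions at 6 months and were all higher in dwarf livers at 22 months. Of 16 tested of 23, 3 were higher in dwarf livers at 22 months, against 1.37% of all tested probe sets. These were the omega-hydroxylases Cyp4a14 (4.63) and Cyp4a10 (4.30) and the mitochondrial dehydrogenase Acadm (0.79), and the other 13 did not pass. At 6 months Cyp4a14 (2.80), Cyp4a10 (1.93) and Acadm (0.51) were higher and 4 were lower, against 6.37% and 6.95% of all tested probe sets. The 4 were the lipid droplet protein Plin2 (-1.66), the fatty acid binding protein Fabp1 (-0.79), Cpt2 (-0.67) and Slc25a20 (-0.50), the last 2 of the carnitine shuttle. The median of the 16 was 0.53 at 22 months and 0.15 at 6 months, against 0.69 and -0.99 for the members. The interaction was positive for 4 of the 16 (Cyp4a14, Slc25a20, Cpt2 and Plin2), against 1.54% of all tested probe sets. Its median over the 16 was 0.70, against 1.59 for the members and -0.07 over all. With age, Cyp4a14, Cyp4a10 and Cpt2 were lower in wild type livers (median of the 16 -0.47), against 1.04% of all tested probe sets. In dwarf livers Plin2, Fabp1 and Slc25a20 were higher and Cpt1a was lower (median 0.19), against 7.94% higher and 8.57% lower over all. Ppara itself differed by -0.09 at 22 months (limma adjusted p = 0.953) and -0.41 at 6 months (adjusted p = 0.11), and Rxra by 0.51 (adjusted p = 0.735) and 0.61 (adjusted p = 0.278). Of 6 tested nuclear receptors and coregulators, Nr1i3 (1.66 at 22 and 1.12 at 6 months) and Pparg (1.76 and 1.33) were higher in dwarf livers at both ages. Of all tested probe sets 1.37% were higher at 22 months and 6.37% at 6 months.

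**Figure D4:**
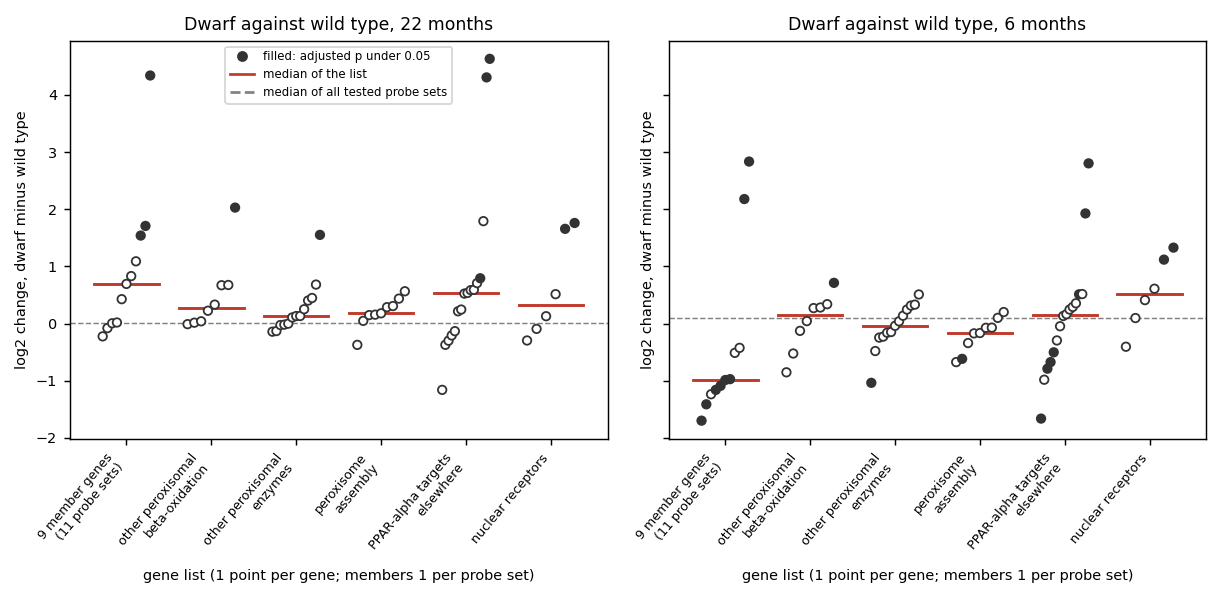
Log2 change in dwarf over wild type livers at 22 and at 6 months for the member probe sets and for the tested genes of 5 other lists; filled points have a limma adjusted p under 0.05, red lines are list medians and the dashed line is the median of all tested probe sets. The members' median is 0.69 at 22 months and -0.99 at 6 months, while that of the other beta-oxidation genes is 0.28 and 0.16.

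The gene whose log2 signal was most like each member's was found by Pearson's r over the 14 arrays among 5472 other genes, as a description, since the arrays share their 4 groups. Hao2 was most like Cyp4a14 (r = 0.948), Cyp2b9 (0.943) and Acadm (0.924). Ehhadh and Acot1 shared a neighbour, Chpt1 (r = 0.895 with Ehhadh and 0.925 with Acot1), beside Rdh16 (0.910) and Cryz (0.889) for Ehhadh and Sardh (0.916) and 4931406C07Rik (0.858) for Acot1. Acaa1b and Hsd17b4 shared Dlst (0.862 and 0.920), with Ephx2 (0.892) and Sdha (0.845) next to Acaa1b and Clpb (0.917) and Ppa1 (0.908) next to Hsd17b4. Lonp2 was most like Hsd17b12 (0.954), Elovl5 (0.953) and Adipor2 (0.951), and Abcd3 like Lactb2 (0.940), Timd2 (0.920) and Cd59b (0.915). Abcd2 was most like Cd63 (0.880), Robo1 (0.871) and Igfbp1 (0.871), and Scp2 like Triap1 (0.901), H2az1 (0.895) and Nsun2 (0.885).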

How the data were processed

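The deposited values are signal intensities on a linear scale, 1 per probe set and array, made by the authors with MAS5 per the submitters' processing notes; the version and the array files' genome build are not given in the sources used here. Total RNA came from snap frozen liver and was made into biotinylated target, per the labels' protocols. The values were used as deposited, floored at 54.9 and put on the log2 scale. Probe sets entered the test with a signal above 184.8, the pooled median, on 3 or more arrays, and 66 control probe sets were left out, which gave 7227.

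The 4 group means were estimated together from the 14 arrays by limma (version 3.58.1, R version 4.3.3), whose eBayes step used an intensity trend. The 6 contrasts were adjusted by Benjamini-Hochberg over all tested probe sets, with calls at an adjusted p under 0.05. Fold changes were computed on floored values and understate those of genes near the floor. Groups came from the labels, and no pairing, sex or batch is labelled. The number of arrays limits the precision. The fit was also run on simulated arrays with known changes, and the outcome is not given here. Their noise was normal and independent between probe sets, without differences in array quality, so they do not speak to such differences.

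Named genes were drawn from every member probe set in every contrast, a fixed set of related genes, the called genes with the smallest p (at most 3) of the other lists in the contrasts described, and the 3 genes most like each member. Where a contrast had more called list genes, the others named were chosen after their values were seen. Members and lists were chosen with earlier results of these data known. Of 12488 probe sets, 10855 had 1 gene symbol, 396 several and 1237 none listed; only those with 1 were named. Promoter windows are RefSeq's (GRCm38.p6), read with Python 3.11.15, and protein features were not analysed here. The plots used pandas 2.3.3. Alternatives were other scalings, floors, filters and variance models, 2 covariates, each array left out in turn, and separate fits for each pair of groups.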

Additional observations from a re-analysis of the deposited data

Results flagged for a closer look

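In 2 of 22 groups of 4 livers, 1 value lay far from the others, by Dixon's gap over range of the unlogged signals at its 95% critical value. Chance gives this in about 1 of 20 groups if values are normally distributed and groups independent. The 22 are not independent, because the 11 probe sets were read on the same livers. Log2 signals, which the limma tests used, and groups of 3 were not checked. Acaa1b B read 6964.8 in the 6-month wild type animal 88, a gap of 0.847 of the range. Abcd2 read 774.4 in the 6-month dwarf animal 83, a gap of 0.922 of the range.

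The genotype difference changed between the ages, by the interaction test, for 7 member probe sets (limma, log2 difference at 22 minus 6 months): Acot1 by 2.22, Ehhadh by 1.96, Acaa1b A by 1.82, Lonp2 by 1.70, Hsd17b4 by 1.59, Abcd3 by 1.19 and Scp2 A by 1.11.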

How the results depend on the processing

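Of 1380 alternative values of the members' log2 changes, 1280 kept their direction and their side of the threshold, 25 changed sign without passing in either setting, 54 kept the direction but no longer passed, 21 newly passed and 0 reversed a called value. The 25 were values of Lonp2 and Scp2 at 22 months, Scp2 A and Acaa1b B with age in wild type, Abcd2 with age in dwarf and Acaa1b in the average. The member counts at 22 months (3 to 4, against 3), at 6 months (7 to 10, against 8) and for the interaction (5 to 8, against 7) stayed within 1.5 times under the other settings; without 1 array they ran from 3 to 3, 8 to 9 and 5 to 8. With age in wild type livers the count was 2, but 4 with array weights, 1 with the 18S covariate, 1 with the compared groups alone and 1 to 2 without 1 array. With age in dwarf livers it was 8, but 3 with the 18S covariate, 1 with the 3' to 5' ratio covariate and 7 to 8 without 1 array. For the average it was 7, but 4 without the filter on low values and 5 to 8 without 1 array. Causes were not tested.

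Over all tested probe sets, the count at 22 months was 212, but 442 with array weights; at 6 months 962, but 630 with the compared groups alone; with age in wild type livers 180, but 472 with array weights, 108 with median scaling, 102 without the filter, 90 without the trend, 76 with the compared groups alone and 9 with the 18S covariate; and for the interaction 158, but 69 without the filter, 64 without the trend and 57 with the ratio covariate. Without 1 array the interaction count ran from 48 (dwarf animal 3) to 169 (dwarf animal 83). Scaling the arrays to a common median moved the median of all probe sets at 6 months to -0.10, against 0.10, and the split to 192 higher and 844 lower, against 460 and 502. It moved the split to 919 and 243, against 574 and 619, with age in dwarf livers, to 155 and 18, against 111 and 47, for the interaction, and to 187 and 543, against 336 and 406, for the average. No paired analysis was possible because each animal number belongs to 1 array and the labels name no litters or pairs. Members near the floor (Abcd2 and Hao2 in wild type livers) have the least certain folds.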
